A study of Mus musculus with 36 samples.

Results

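The inflammasome and pyroptosis genes described here are 10 genes taken by name: the sensor genes Nlrp3, Nlrc4, Naip2, Naip5, Nlrp1b and Mefv, the adaptor gene Pycard, the protease genes Casp1 and Casp4, and the pore gene Gsdmd. No measured value was used to pick them. All 10 were found among the 54232 genes of the count files, and all 10 were among the 12957 genes that passed the filter on low counts. RNA was sequenced from cultured mouse bone marrow-derived macrophages (BMDM), grown from marrow for 5 days with macrophage colony-stimulating factor at 20 ng/mL. There were 36 libraries in 6 groups of 6. Macrophages labelled NOS1 KO were untreated (control) or had received lipopolysaccharide (LPS, a bacterial cell wall component) at 100 ng/mL for 2 h or 8 h, and macrophages labelled WT, given as strain C65BL6 in the design text, had the same treatments. Neither the source of the knockout allele nor the animals, their sex or any batch is given, and whether a group's libraries are separate cultures is not stated. A total of 6 libraries, 1 per group, carry a genotype label that begins with BMDM.

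Inflammasomes are protein assemblies that form in the cytosol of macrophages. A sensor that meets a microbial product or cell damage gathers the adaptor ASC, encoded by Pycard, which brings caspase-1 together and activates it. Caspase-1 matures the cytokines interleukin-1 beta and interleukin-18 and cleaves gasdermin D, whose pores let them out and lead to the lytic cell death called pyroptosis, while caspase-11, the product of mouse Casp4, cleaves gasdermin D after binding LPS inside the cell. LPS at the macrophage surface is known as a priming signal that raises part of this machinery at the RNA level before a further signal triggers assembly. The counts given here measure RNA only, and not protein, assembly, cleavage or death.

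Library totals ran from 8953489 to 18482551 counts. Levels are given as CPM, counts relative to the library total, after scaling by the trimmed mean of M-values (TMM). Changes were tested with edgeR's quasi-likelihood test over all 12957 genes, with 1 spread estimate over the 6 groups, and a gene was called where the Benjamini-Hochberg adjusted p was below 0.05. The deleted gene checks the labels. Among controls, KO-labelled libraries averaged 4.16 ± 1.04 CPM of Nos1, against 0.0650 ± 0.0988 CPM for WT-labelled ones (SD, n = 6 each), so it was higher under the label of its deletion with a log2 fold change of 5.94 ± 0.58 (adjusted p = 9.15e-08). Whether those reads cover the deleted exons cannot be read from gene counts. The libraries are therefore called KO-labelled and WT-labelled, and every direction between them rests on those labels. Each group also held 2 kinds of library that the labels do not name, set A, which is replicates 1, 2 and 6, and set B, which is replicates 3, 4 and 5. They were split by the first principal component of the counts. The chi-square per gene between replicates had a median of 3.46 within set B, 16.0 within set A and 52.7 across the sets. Macrophage markers summed to 12693 to 22996 CPM over the 36 libraries and all 10 of them passed the filter. Skeletal muscle markers passed 100 CPM in 4 WT-labelled LPS libraries, up to 4457 CPM, and 12 neutrophil markers together gave 31.5 to 355 CPM. The lowest of these, Ly6g, was at or near 0, and the highest, S100a9, reached 119 CPM in a WT-labelled 2 h library. In bulk RNA, fewer cells of a type and less RNA per cell cannot be told apart.

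LPS raised most of the 10 genes by 8 h, and fewer at 2 h. At 2 h, 4 of 10 were called higher and 1 lower in KO-labelled libraries, against a background of 18.9% and 16.4% of all tested genes. In WT-labelled libraries 5 of 10 were higher and 1 lower at 2 h, where 20.3% and 17.6% of all genes were called. At 8 h the counts were 8 higher and 1 lower in KO-labelled libraries (background 34.9% and 37.1%) and 8 higher and 2 lower in WT-labelled libraries (background 34.2% and 37.0%). Between 2 h and 8 h, 7 were higher and 2 lower in KO-labelled libraries (background 31.5% and 33.7%), and 7 higher and 1 lower in WT-labelled libraries (background 30.0% and 32.7%). The median log2 fold change of the 10 genes at 8 h was 1.92 in KO-labelled and 1.96 in WT-labelled libraries, beside -0.058 and -0.064 over all tested genes. All changes are relative to the TMM scale. Scaling by library totals alone moved the median of all genes at 8 h to -0.88 in KO-labelled and -0.83 in WT-labelled libraries, and the share of higher genes among all called genes, 47.8% to 53.5% over the 6 LPS contrasts, to 19.5% to 22.3%.

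**Figure D1:**
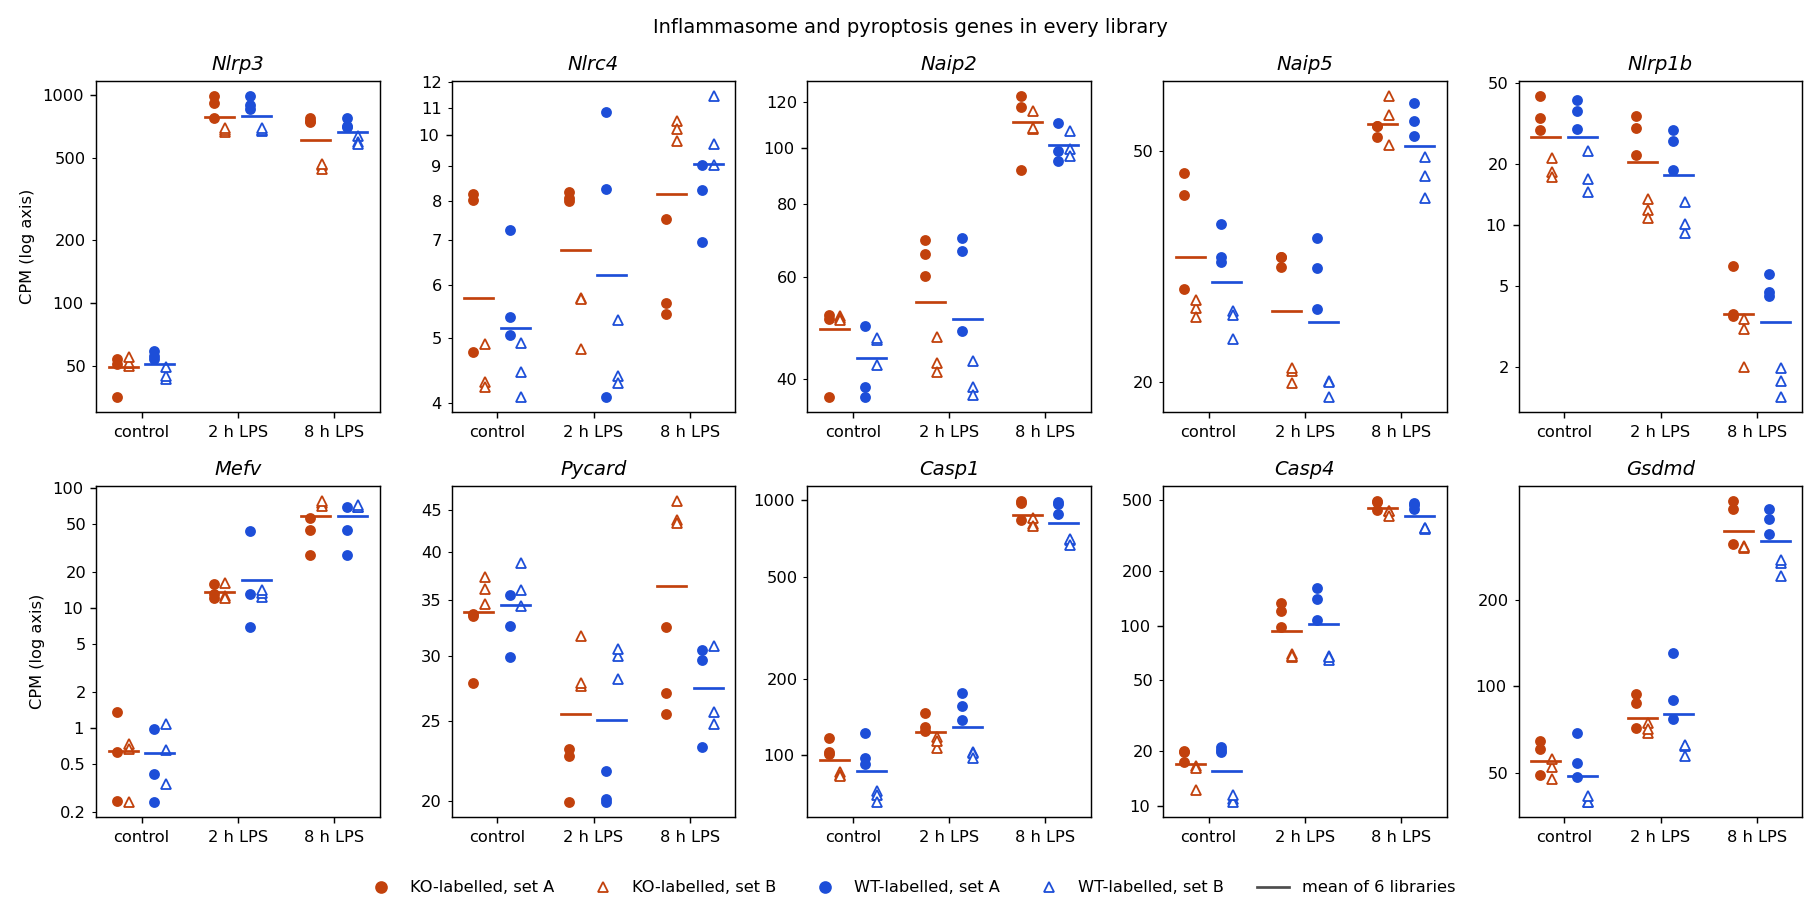
Level of each of the 10 genes in every library, in CPM on a log axis, by treatment, with KO-labelled libraries left of WT-labelled ones; filled circles are set A, open triangles set B and bars the mean of 6 libraries. Nlrp3 stands near its 8 h level already at 2 h, Casp1 and Gsdmd stand high at 8 h, and Nlrp1b is the gene whose 8 h libraries all lie below its controls.

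Nlrp3 (ENSMUSG00000032691, mm10 chr11:59541568-59566956, plus strand) encodes the sensor that reacts to potassium loss, crystals and membrane damage. In KO-labelled libraries Nlrp3 ran from 35.1 to 54.7 CPM in controls (median 51.1), from 666 to 988 CPM at 2 h (median 734) and from 440.2 to 772 CPM at 8 h (median 604). In WT-labelled libraries Nlrp3 ran from 43.2 to 58.6 CPM in controls (median 51.5), from 673 to 988 CPM at 2 h (median 772) and from 579 to 771 CPM at 8 h (median 667). No LPS library overlapped a control. The log2 fold change was 3.99 ± 0.16 (adjusted p = 1.15e-20) at 2 h and 3.62 ± 0.16 (adjusted p = 2.84e-20) at 8 h in KO-labelled libraries, and 3.97 ± 0.16 (adjusted p = 1.2e-20) at 2 h and 3.71 ± 0.16 (adjusted p = 1.66e-20) at 8 h in WT-labelled libraries. From 2 h to 8 h it fell in KO-labelled libraries, -0.38 ± 0.14 (adjusted p = 0.0206), a call that was lost without any one of KO-labelled 2 h replicate 1 or 6 or KO-labelled 8 h replicate 3, 4 or 5 (adjusted p up to 0.0679) and in set A alone (0.115). In WT-labelled libraries the later change was -0.26 ± 0.14 (adjusted p = 0.108), which was called with the library set as a term, -0.25 (adjusted p = 0.0279). The ranges of 2 h and 8 h libraries overlapped under both labels. Against control, the KO-labelled rise at 8 h was 3.13 ± 0.056 in set B and 4.02 ± 0.15 in set A, a difference of -0.89 ± 0.14 (adjusted p = 1.63e-05).

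Mefv (ENSMUSG00000022534, mm10 chr16:3707218-3718097, minus strand) encodes pyrin, an inflammasome sensor. Mefv in KO-labelled libraries had a lowest, median and highest value of 0.242, 0.655 and 1.36 CPM in controls, 12.1, 12.9 and 16.4 CPM at 2 h, and 27.7, 63.9 and 78.3 CPM at 8 h. Mefv in WT-labelled libraries had a lowest, median and highest value of 0.241, 0.538 and 1.08 CPM in controls, 7.03, 13.22 and 44.1 CPM at 2 h, and 27.8, 69.4 and 73.1 CPM at 8 h. The controls held 3 to 20 counts per library in KO-labelled and 4 to 16 in WT-labelled libraries, so the fold rests on few reads at its lower end. All LPS libraries lay above all controls. On the log2 scale Mefv rose by 4.38 ± 0.42 (adjusted p = 2.06e-10) at 2 h and 6.48 ± 0.43 (adjusted p = 3.61e-15) at 8 h in KO-labelled libraries, and by 4.79 ± 0.43 (adjusted p = 2.38e-11) and 6.56 ± 0.44 (adjusted p = 3.25e-15) in WT-labelled libraries. In the fit over all libraries these were the largest log2 fold changes of the 10 genes at both times and under both labels, while in set A the KO-labelled value at 2 h was 4.13 ± 0.79 for Mefv and 4.26 ± 0.15 for Nlrp3. It went on rising between 2 h and 8 h, by 2.10 ± 0.32 in KO-labelled and 1.77 ± 0.32 in WT-labelled libraries, and the WT-labelled ranges at 2 h and 8 h overlapped through its highest 2 h library. In set A alone the later WT-labelled change was 1.15 ± 0.53 and not called (adjusted p = 0.0809).

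Nlrp1b (ENSMUSG00000070390, mm10 chr11:71153102-71230733, minus strand), a sensor that anthrax lethal factor protease activates in some mouse strains, moved the other way. In KO-labelled libraries Nlrp1b ran from 17.2 to 43.0 CPM in controls (median 25.3), from 10.8 to 34.2 CPM at 2 h (median 17.7) and from 1.99 to 6.24 CPM at 8 h (median 3.48). In WT-labelled libraries Nlrp1b ran from 14.5 to 41.2 CPM in controls (median 26.4), from 9.13 to 29.2 CPM at 2 h (median 15.7) and from 1.41 to 5.70 CPM at 8 h (median 3.22). At 2 h the ranges overlapped those of controls, and the values of -0.41 ± 0.34 (adjusted p = 0.390) in KO-labelled and -0.61 ± 0.34 (adjusted p = 0.162) in WT-labelled libraries were not called. Every 8 h library lay below every control and every 2 h library of its label. Nlrp1b fell at 8 h with a log2 fold change of -2.89 ± 0.39 (adjusted p = 4.59e-08) in KO-labelled and -3.03 ± 0.39 (adjusted p = 2.51e-08) in WT-labelled libraries. With the library set as a term in the fit the 2 h falls were called as well, at -0.47 (adjusted p = 0.0106) in KO-labelled and -0.65 (adjusted p = 0.000556) in WT-labelled libraries. All set B libraries lay below all set A libraries in each of the 6 groups, which 2.58% of all tested genes also showed; the sets were split on the same counts.

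Naip2, Naip5 and Nlrc4 form 1 receptor system, in which a NAIP protein binds bacterial flagellin (Naip5) or the rod of a type III secretion system (Naip2) and then engages NLRC4. Naip2 in KO-labelled libraries had a lowest, median and highest value of 37.2, 50.8 and 51.6 CPM in controls, 41.1, 53.7 and 69.3 CPM at 2 h, and 91.7, 112 and 123 CPM at 8 h. Naip2 in WT-labelled libraries had a lowest, median and highest value of 37.3, 44.5 and 49.4 CPM in controls, 37.6, 45.6 and 70.0 CPM at 2 h, and 94.9, 99.0 and 110.3 CPM at 8 h. Naip2 (ENSMUSG00000078945, mm10 chr13:100144063-100202092, minus strand) stood above all controls and all 2 h libraries by 8 h, with a log2 fold change of 1.18 ± 0.14 (adjusted p = 1.97e-09) in KO-labelled and 1.22 ± 0.14 (adjusted p = 1.14e-09) in WT-labelled libraries. At 2 h it was not called, 0.16 ± 0.14 (adjusted p = 0.416) and 0.22 ± 0.14 (adjusted p = 0.219), and the sets went opposite ways. In set A it was higher, 0.48 ± 0.16 (adjusted p = 0.0228) in KO-labelled and 0.56 ± 0.16 (0.00815) in WT-labelled libraries, and in set B lower, -0.22 ± 0.066 (0.00505) and -0.18 ± 0.066 (0.0192). The difference of the 2 h effect between the sets, B minus A, was -0.70 ± 0.17 (adjusted p = 0.0129) and -0.75 ± 0.17 (0.00705). Of the Naip2 transcript 13.7% is near-identical to Naip1.

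Naip5 (ENSMUSG00000071203, mm10 chr13:100211739-100246323, minus strand) shares 84.5% of its 5204 transcript bases near-identically with Naip6, so its counts are uncertain. In KO-labelled libraries Naip5 ran from 25.9 to 45.8 CPM in controls (median 28.3), from 19.9 to 32.9 CPM at 2 h (median 26.4) and from 51.2 to 62.2 CPM at 8 h (median 55.3). In WT-labelled libraries Naip5 ran from 23.7 to 37.5 CPM in controls (median 29.3), from 18.8 to 35.4 CPM at 2 h (median 23.4) and from 41.6 to 60.6 CPM at 8 h (median 51.1). All 8 h libraries lay above the controls. At 2 h the ranges overlapped and the log2 fold changes of -0.31 ± 0.17 (adjusted p = 0.157) in KO-labelled and -0.23 ± 0.17 (adjusted p = 0.287) in WT-labelled libraries were not called. They were called lower in set B, -0.38 ± 0.082 and -0.37 ± 0.082, and with library totals, -0.61 and -0.55, and the KO-labelled one also with the set as a term (-0.32). The log2 fold change at 8 h was 0.77 ± 0.16 (adjusted p = 0.000105) in KO-labelled and 0.77 ± 0.17 (adjusted p = 9.98e-05) in WT-labelled libraries, and with library totals as the scale it was -0.060 and -0.0055 and not called. The KO-labelled rise at 8 h was 1.09 ± 0.078 in set B and 0.49 ± 0.14 in set A, a difference of 0.60 ± 0.16 (adjusted p = 0.00475).

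Nlrc4 (ENSMUSG00000039193, mm10 chr17:74425438-74459142, minus strand) was the lowest sensor beside Mefv in controls. Nlrc4 in KO-labelled libraries had a lowest, median and highest value of 4.22, 4.83 and 8.19 CPM in controls, 4.81, 6.85 and 8.23 CPM at 2 h, and 5.43, 8.67 and 10.5 CPM at 8 h. Nlrc4 in WT-labelled libraries had a lowest, median and highest value of 4.08, 4.98 and 7.22 CPM in controls, 4.08, 4.85 and 10.8 CPM at 2 h, and 6.94, 9.04 and 11.4 CPM at 8 h. Its groups overlapped at every time. At 8 h its change was called, 0.52 ± 0.23 (adjusted p = 0.0428) in KO-labelled and 0.81 ± 0.23 (adjusted p = 0.00217) in WT-labelled libraries, but the KO-labelled call was lost without any one of KO-labelled 8 h replicate 3, 4 or 5 or KO-labelled control replicate 2, 3, 4 or 5 (adjusted p up to 0.103). Library totals gave -0.30 there and 0.048 in WT-labelled libraries, both not called. In set A alone Nlrc4 stood at -0.18 ± 0.28 in KO-labelled and 0.47 ± 0.28 in WT-labelled libraries and was not called, and in set B at 1.19 ± 0.15 and 1.18 ± 0.15. The difference between the sets was called in KO-labelled libraries, 1.37 ± 0.31 (adjusted p = 0.00141), and not in WT-labelled ones (adjusted p = 0.135).

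Pycard (ENSMUSG00000030793, mm10 chr7:127989708-127993867, minus strand) encodes ASC, the adaptor between sensors and caspase-1, and it changed least among the 10 genes at 8 h. Pycard in KO-labelled libraries had a lowest, median and highest value of 27.8, 34.2 and 37.3 CPM in controls, 20.0, 25.4 and 31.7 CPM at 2 h, and 25.5, 37.9 and 46.1 CPM at 8 h. Pycard in WT-labelled libraries had a lowest, median and highest value of 29.8, 34.98 and 38.8 CPM in controls, 19.9, 25.0 and 30.6 CPM at 2 h, and 23.2, 27.6 and 30.8 CPM at 8 h. At 2 h Pycard fell, -0.41 ± 0.14 (adjusted p = 0.0171) in KO-labelled and -0.46 ± 0.14 (adjusted p = 0.00700) in WT-labelled libraries, while the ranges overlapped. At 8 h it stood at 0.10 ± 0.14 (adjusted p = 0.505) against control in KO-labelled libraries and was lower in WT-labelled ones, -0.33 ± 0.14 (adjusted p = 0.0305). That KO-labelled value joins 0.30 ± 0.077 in set B, called higher (adjusted p = 0.000584), and -0.16 ± 0.13 in set A, not called (0.277). These sets differed by 0.46 ± 0.15 (adjusted p = 0.0198). The WT-labelled fall at 8 h was lost without any one of WT-labelled 8 h replicate 2, 3 or 4 or WT-labelled control replicate 5 (adjusted p up to 0.0722). The call of the KO-labelled fall at 2 h was lost without KO-labelled 2 h replicate 1 (0.0537). It was also lost without the libraries labelled BMDM (0.0623) or with no count filter (0.0540). Library totals turned the KO-labelled value at 8 h to -0.71 (adjusted p = 3.4e-05). Between 2 h and 8 h Pycard rose in KO-labelled libraries, 0.51 ± 0.14 (adjusted p = 0.00141), where library totals gave -0.011, and stood at 0.13 ± 0.14 (adjusted p = 0.431) in WT-labelled ones. Split by set, that WT-labelled value was -0.11 ± 0.082 for set B (adjusted p = 0.213) against 0.44 ± 0.13 for set A (0.00730), a difference of -0.56 ± 0.15 (0.00911). Pycard overlaps Gm45205 on the opposite strand over 485 exon bases, and with no strand setting given, reads of both cannot be told apart.

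Casp1 (ENSMUSG00000025888, mm10 chr9:5298517-5307265, plus strand) encodes caspase-1, the protease that matures interleukin-1 beta. In KO-labelled libraries Casp1 ran from 82.7 to 117 CPM in controls (median 94.1), from 107 to 147 CPM at 2 h (median 121) and from 792 to 994 CPM at 8 h (median 849). In WT-labelled libraries Casp1 ran from 65.5 to 122 CPM in controls (median 82.3), from 97.9 to 176 CPM at 2 h (median 121) and from 671 to 982 CPM at 8 h (median 798). Ranges of controls and 2 h libraries overlapped, while all 8 h libraries stood far above both. At 2 h the change was 0.36 ± 0.15 (adjusted p = 0.0530) in KO-labelled libraries, which was not called, and 0.57 ± 0.15 (adjusted p = 0.00199) in WT-labelled libraries, which was called. With library totals as the scale the WT-labelled value was 0.26 and not called. The KO-labelled rise was called too with limma-voom (adjusted p = 0.0457), with the set as a term (0.000259), and without KO-labelled 2 h replicate 3 or KO-labelled control replicate 1. By 8 h the log2 fold change was 3.19 ± 0.16 (adjusted p = 8.71e-19) in KO-labelled and 3.24 ± 0.16 (adjusted p = 6.31e-19) in WT-labelled libraries. Most of the rise came between 2 h and 8 h, 2.83 ± 0.16 in KO-labelled and 2.67 ± 0.15 in WT-labelled libraries.

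Casp4 (ENSMUSG00000033538, mm10 chr9:5308828-5336783, plus strand) encodes caspase-11, the cytosolic LPS receptor of the noncanonical pathway, and lies beside Casp1 on the same strand. Casp4 in KO-labelled libraries had a lowest, median and highest value of 12.2, 17.1 and 20.0 CPM in controls, 66.8, 84.0 and 134 CPM at 2 h, and 409, 436 and 492 CPM at 8 h. Casp4 in WT-labelled libraries had a lowest, median and highest value of 10.4, 15.6 and 21.1 CPM in controls, 64.7, 87.8 and 162 CPM at 2 h, and 343, 397.4 and 480.0 CPM at 8 h. The groups of each label did not overlap at any pair of times. On the log2 scale Casp4 rose by 2.44 ± 0.23 (adjusted p = 8.94e-11) at 2 h and 4.71 ± 0.25 (adjusted p = 7.21e-18) at 8 h in KO-labelled libraries, and by 2.70 ± 0.23 (adjusted p = 8.97e-12) and 4.70 ± 0.25 (adjusted p = 8.24e-18) in WT-labelled libraries. The WT-labelled rise at 8 h differed between the sets, with 5.01 ± 0.072 in set B and 4.51 ± 0.15 in set A (adjusted p of the difference = 0.0349). Gsdmd (ENSMUSG00000022575, mm10 chr15:75862327-75867408, plus strand) encodes gasdermin D, the pore protein. In KO-labelled libraries Gsdmd ran from 47.5 to 64.7 CPM in controls (median 54.3), from 68.8 to 93.7 CPM at 2 h (median 72.9) and from 302 to 439.7 CPM at 8 h (median 309). In WT-labelled libraries Gsdmd ran from 39.5 to 69.0 CPM in controls (median 45.0), from 57.3 to 130.4 CPM at 2 h (median 69.6) and from 241 to 412 CPM at 8 h (median 306). At 2 h KO-labelled libraries lay above all controls and WT-labelled libraries overlapped them. The log2 fold change was 0.50 ± 0.17 (adjusted p = 0.0191) at 2 h and 2.65 ± 0.18 (adjusted p = 2.57e-15) at 8 h in KO-labelled, and 0.71 ± 0.17 (adjusted p = 0.000894) and 2.71 ± 0.18 (adjusted p = 1.59e-15) in WT-labelled libraries. Without KO-labelled 2 h replicate 1 the KO-labelled 2 h rise was not called (adjusted p = 0.0529). Nor was it called without the libraries labelled BMDM (0.0507), or with library totals, which gave 0.20.

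**Figure D2:**
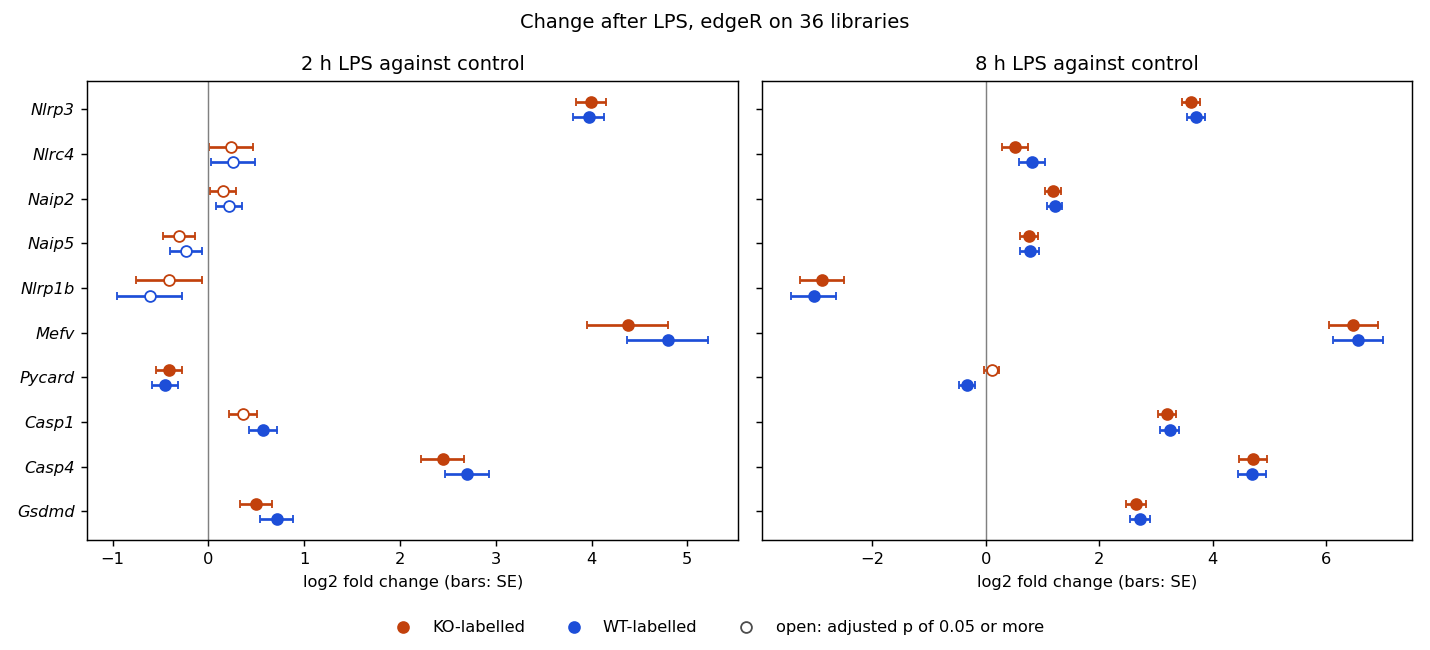
Log2 fold change after LPS for each gene, left at 2 h and right at 8 h, with SE bars, KO-labelled above WT-labelled; open points were not called. Nlrp3, Mefv and Casp4 lie beyond 2 at 2 h, Casp1 and Gsdmd join them at 8 h, and Nlrp1b lies near -3 at 8 h.

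The order of the members' RNA levels, per kilobase of annotated exon, changed with LPS. In controls Casp1 stood first, at 64.1 ± 9.28 CPM per kb (SD, n = 6) in KO-labelled and 57.9 ± 14.5 CPM per kb in WT-labelled libraries, above every library of Gsdmd, the next gene. Gsdmd in turn stood above Nlrp3. The genes from Naip2 and Pycard down to Casp4 and Nlrp1b were neighbours whose libraries overlapped, except Naip2 and Naip5 in WT-labelled ones, and Nlrc4 and then Mefv came last, apart from the gene above them. At 2 h Nlrp3 was first, at 194 ± 33.8 CPM per kb in KO-labelled and 196 ± 33.3 in WT-labelled libraries, above all Casp1 libraries. At 8 h Casp1 was first again, at 587 ± 58.5 CPM per kb in KO-labelled and 547 ± 95.4 in WT-labelled libraries. Nlrp3, Gsdmd and Casp4 followed with libraries that overlapped from one gene to the next, and Casp4 stood apart from Naip2 below it. Nlrp1b was last at 8 h, at 0.579 ± 0.223 and 0.527 ± 0.292 CPM per kb. The length used is the sum of all annotated exon bases, 3800 for Pycard and 1497 for Casp1, so genes with long minor transcripts read low. For Casp4 it is 3710 bases where the longest transcript has 1901, and for Gsdmd 2377 where it has 1792. For Nlrp3 the 2 lengths are 4057 and 4021, so the order of these 3 genes at 8 h depends on the length used.

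**Figure D3:**
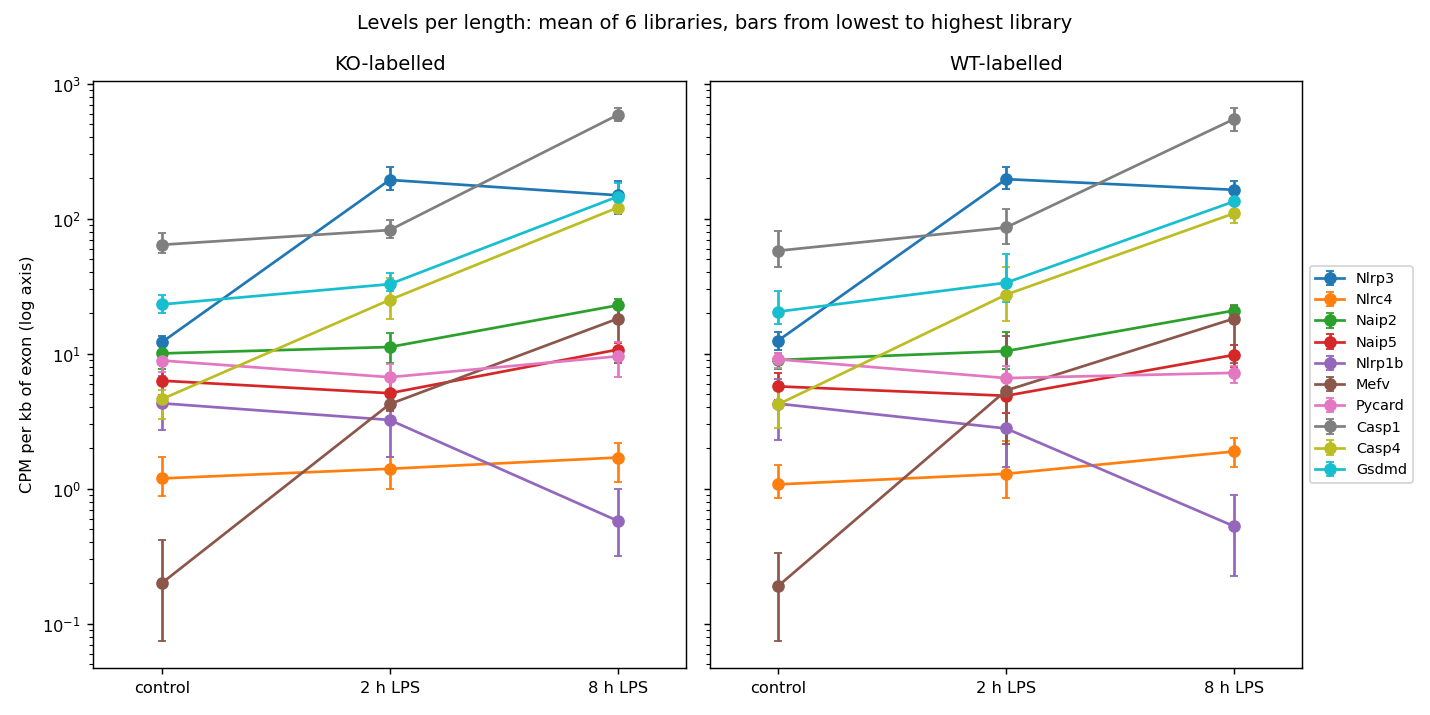
Level per kilobase of exon on a log axis, as the mean of 6 libraries with bars from the lowest to the highest library, over control, 2 h and 8 h, KO-labelled left and WT-labelled right. Casp1 leads in controls and at 8 h, Nlrp3 leads at 2 h, Mefv is last in controls and Nlrp1b is last at 8 h.

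Upstream sequence was read for the member that was at its highest mean at 2 h (Nlrp3), for a member that rose at 2 h and again by 8 h (Casp4), and for one with most of its rise after 2 h (Casp1). The 250 bases before the start site are from RefSeq on GRCm38.p6, and 9 of the 10 members, all but Gsdmd, were in that table, with 12 windows. Capitals mark matches on either strand to GGANTTTCC or GGGANNNCC, letters of NF-kB sites, where N is any base; in Casp4 matches of the second form on opposite strands overlap.
Nlrp3, chr11:59541319-59541568, plus strand: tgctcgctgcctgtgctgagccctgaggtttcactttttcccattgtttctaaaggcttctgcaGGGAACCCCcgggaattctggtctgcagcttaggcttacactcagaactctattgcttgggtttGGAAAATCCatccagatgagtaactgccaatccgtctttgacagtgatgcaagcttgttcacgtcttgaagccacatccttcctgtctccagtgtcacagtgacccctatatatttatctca
Casp4, chr9:5308599-5308848, plus strand: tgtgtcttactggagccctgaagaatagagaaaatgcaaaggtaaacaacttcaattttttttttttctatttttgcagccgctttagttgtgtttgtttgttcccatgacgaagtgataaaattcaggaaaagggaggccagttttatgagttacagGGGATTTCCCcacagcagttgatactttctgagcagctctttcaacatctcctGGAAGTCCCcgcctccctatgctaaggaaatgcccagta
Casp1, chr9:5298267-5298516, plus strand: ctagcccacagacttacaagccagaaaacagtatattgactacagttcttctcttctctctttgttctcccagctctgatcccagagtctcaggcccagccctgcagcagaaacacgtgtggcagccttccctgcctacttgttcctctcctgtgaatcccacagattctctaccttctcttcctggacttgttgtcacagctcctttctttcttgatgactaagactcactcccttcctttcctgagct
The form GGANTTTCC was in 1 of 9 members, Nlrp3, beside 1.25% of all 27025 genes in the table. The looser GGGANNNCC was in 3 of 9, Nlrp3, Naip5 and Casp4, beside 17.8% of all genes. A second Nlrp3 window held neither form, and a second, overlapping Casp4 window held the same matches. The interferon element letters GAAANNGAA were in 0 of 9 members (8.18% of genes) and the letters TTCNNNGAA of gamma-activated sites in 0 of 9 (8.13%). A match is a run of letters and not a bound site, and the absence of one concerns this window only.

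Between the genotype labels no member was called. The 2 labels were compared in controls, at 2 h and at 8 h, and the responses to LPS were compared as an interaction. By edgeR 0 of 10 were called in controls (background 0.123%), 0 at 2 h (0.0232%), 0 at 8 h (0.100%), and 0 in the interactions at 2 h (0%) and 8 h (0%). DESeq2 and limma-voom also called 0 in each. At an unadjusted p below 0.05 edgeR had 0 members in controls (2.99% of all genes), 0 at 2 h (3.09%) and 0 in the 2 h interaction (1.18%). It had 1 of 10, Pycard, at 8 h and in the 8 h interaction, where 9.28% and 4.17% of all genes passed, so 1 member at 8 h is near the background. KO-labelled and WT-labelled libraries overlapped for all 10 genes at all 3 times. The share of all tested genes that overlapped in this way was not computed, so that count is a description only. In controls the log2 differences, KO-labelled over WT-labelled, ran from -0.043 for Nlrp3 (95% interval -0.33 to 0.24) to 0.18 for Gsdmd (-0.15 to 0.51). At 8 h they ran from -0.15 for Nlrc4 (-0.60 to 0.29) to 0.41 for Pycard (0.14 to 0.68). For Casp1 the 8 h interval was -0.18 to 0.39 and for Casp4 -0.28 to 0.56.

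The library sets differed here. In set A, 0 of 10 members were called at any time, where 0.0548% of all genes in controls, 0.0704% at 2 h and 0.0548% at 8 h were called. In set B, 4 were called in controls, 2 at 2 h and 6 at 8 h, where 10.8%, 10.8% and 31.4% of all genes were. The libraries of set B lay close together, so its p-values rest on a small spread that may be technical. In set B controls Casp4 was higher by 0.48 ± 0.089 (adjusted p = 0.000150), Gsdmd by 0.39 ± 0.063, Casp1 by 0.30 ± 0.053 and Nlrp3 by 0.20 ± 0.059, against -0.090 ± 0.14, 0.028 ± 0.19, 0.047 ± 0.12 and -0.27 ± 0.13 for the same genes in set A. None of these 4 differences between the sets was called (lowest adjusted p = 0.118). Interferon-stimulated genes moved in the same libraries: a list of 15 gave a sum between 1248 and 1527 CPM in set B of KO-labelled controls, against 138 to 147 CPM in set B of WT-labelled controls. In set A the sum lay between 238 and 308 CPM for KO-labelled controls, against 219.9 to 496 CPM for WT-labelled controls. Neutrophil marker sums in set B were 118 to 137 CPM in KO-labelled controls and 201 to 224 CPM in WT-labelled ones. The part of either list in the caspase and gasdermin values was not tested.

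At 8 h Pycard and Nlrp3 had differences between the labels that themselves differed between the sets. In set B Pycard had 43.4, 43.7 and 46.1 CPM in KO-labelled libraries, against 24.8, 25.6 and 30.8 CPM in WT-labelled libraries, 3 against 3 with no overlap. In set A it had 25.5, 27.0 and 32.5 CPM in KO-labelled libraries, against 23.2, 29.7 and 30.4 CPM in WT-labelled libraries, which overlapped. The log2 difference was 0.71 ± 0.082 in set B (adjusted p = 6.55e-09) and 0.023 ± 0.13 in set A, and the sets differed by 0.70 ± 0.15 (adjusted p = 0.00349). Nlrp3 went the other way in set B, with 440.2, 460.1 and 467 CPM in KO-labelled libraries, against 579, 595 and 636 CPM in WT-labelled libraries. In set A it had 742, 753 and 772 CPM in KO-labelled libraries, against 698, 706 and 771 CPM in WT-labelled libraries. Its log2 difference was -0.41 ± 0.049 in set B (adjusted p = 1.61e-08) and 0.059 ± 0.13 in set A, and the sets differed by -0.46 ± 0.14 (adjusted p = 0.0367). For the response to 8 h of LPS the Nlrp3 interaction was -0.61 ± 0.077 in set B and 0.32 ± 0.18 in set A, a difference of -0.92 ± 0.20 (adjusted p = 0.00775). Naip5, Casp1, Casp4 and Gsdmd were higher by 0.33, 0.24, 0.28 and 0.22 in set B at 8 h, and for none of these 4 was the difference between the sets called. At 8 h the interferon-stimulated genes in set B together gave 48129 to 49270.4 CPM in KO-labelled libraries, against 31295 to 32688 CPM in WT-labelled libraries. The neutrophil markers there gave 139.6 to 148 CPM in KO-labelled libraries, against 228 to 241 CPM in WT-labelled libraries, and WT-labelled 8 h replicate 5 of set B held 4457 CPM of muscle markers. Their part in these differences was not tested. Over all contrasts, 19 of 110 differences between the sets were called for the 10 members, beside 8.93% of the same tests over all genes. Because the sets were split on the same counts, these calls and their p-values are a description.

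**Figure D4:**
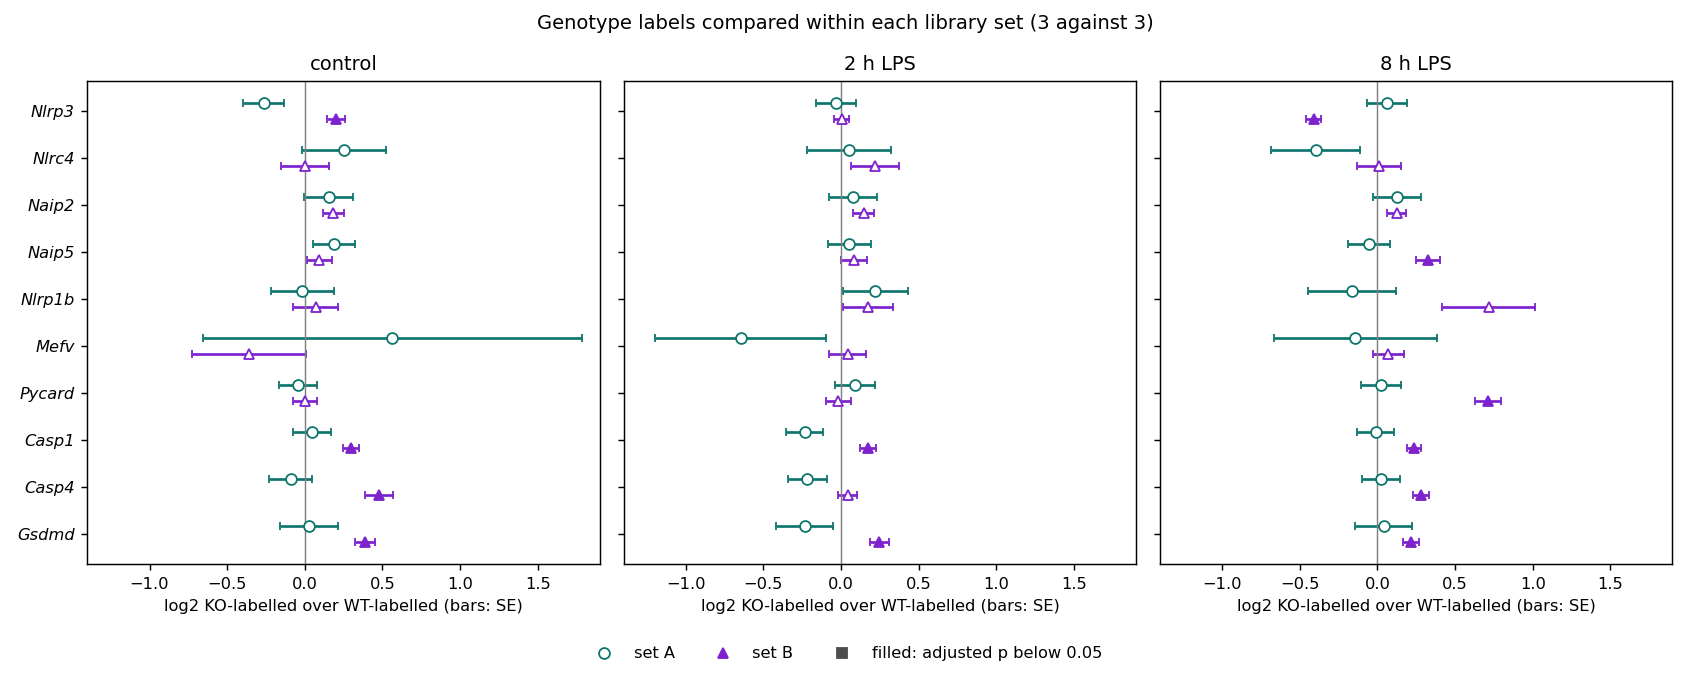
Log2 difference KO-labelled over WT-labelled for each gene in controls, at 2 h and at 8 h, within set A (circles) and set B (triangles), 3 libraries against 3, with SE bars and filled points for an adjusted p below 0.05. Filled points are all in set B, with Pycard at 0.71 and Nlrp3 at -0.41 at 8 h.

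Other genes of the pathway came from a list of 33, of which 31 were found in the files and 26 passed the filter. Among 4 tested sensors, Aim2, the receptor for cytosolic DNA, and Naip6 rose at 8 h and Nlrp1a fell under both labels. The Naip6 counts are uncertain, because Naip5 shares 84.5% of its transcript bases near-identically with Naip6. The background at 8 h was 34.9% of all tested genes higher and 37.1% lower in KO-labelled libraries, and 34.2% and 37.0% in WT-labelled ones. Aim2 had 191 ± 48.0 CPM in KO-labelled 8 h libraries against 32.6 ± 2.14 CPM in their controls, and 153 ± 70.4 against 31.5 ± 2.82 CPM in WT-labelled ones (SD, n = 6 each). Nlrp6, Nlrp12, Naip1, Gsdma and Gsdmc did not pass the filter and averaged at most 0.489 CPM in every group.

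Of 13 tested activators and regulators, 9 rose and 4 fell at 8 h in KO-labelled libraries (background 34.9% and 37.1%). In WT-labelled libraries 8 rose and 4 fell (background 34.2% and 37.0%). The share that fell is near the background. The guanylate-binding proteins Gbp5 and Gbp2, which coat bacteria and their LPS for caspase-11, rose on the log2 scale by 10.14 ± 0.38 and 8.43 ± 0.36 in KO-labelled and 11.43 ± 0.40 and 9.30 ± 0.38 in WT-labelled libraries. Gbp5 averaged 3534 ± 698 CPM at 8 h in KO-labelled libraries against 3.08 ± 1.49 CPM in their controls, and 2930.5 ± 809.6 against 1.08 ± 0.643 CPM in WT-labelled ones. The GTPase gene Gm12250, known as Irgb10, rose by 5.15 ± 0.40 and 6.50 ± 0.44. P2rx7, the ATP-gated channel that triggers NLRP3, fell with log2 fold changes of -1.03 ± 0.095 in KO-labelled and -1.08 ± 0.095 in WT-labelled libraries. Panx1, a channel that releases ATP (-1.15 ± 0.21 and -1.16 ± 0.21), and Txnip, a thioredoxin-binding protein (-1.45 ± 0.24 and -1.13 ± 0.24), fell as well.

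The substrates held the largest rise. Il1b, the caspase-1 substrate, averaged 1488 ± 212 CPM at 8 h in KO-labelled libraries against 0.836 ± 0.400 CPM in their controls, and 3334 ± 1743 against 0.518 ± 0.688 CPM in WT-labelled libraries (SD, n = 6 each). The log2 fold change of Il1b at 8 h was 10.78 ± 0.49 in KO-labelled and 12.77 ± 0.53 in WT-labelled libraries. Il18 was near its control level at 2 h (0.00074 ± 0.16 and 0.23 ± 0.16, not called) and rose on the log2 scale by 3.92 ± 0.17 in KO-labelled and 4.32 ± 0.17 in WT-labelled libraries at 8 h. Il1a rose by 8.92 ± 0.61 and 9.88 ± 0.62, and Gsdme, the gasdermin that caspase-3 cleaves, fell with -1.20 ± 0.21 and -1.07 ± 0.21. Of 7 tested substrates and executioners 6 rose and 1 fell at 8 h under each label (background 34.9% and 37.1% in KO-labelled, 34.2% and 37.0% in WT-labelled libraries). Both secreted antagonists rose, Il1rn by 5.18 ± 0.43 and 5.09 ± 0.42 and Il18bp by 4.14 ± 0.27 and 4.74 ± 0.28. None of the 26 genes was called between the labels by edgeR (background 0.123% in controls, 0.0232% at 2 h and 0.100% at 8 h). Il1b at 8 h had a log2 difference, KO-labelled over WT-labelled, of -1.16 ± 0.31 (adjusted p = 0.0994), with 1417, 1528 and 1652 CPM in KO-labelled libraries against 4782, 4908 and 5042 CPM in WT-labelled libraries of set B, and 1173, 1383 and 1772 CPM in KO-labelled libraries against 1381, 1806 and 2085 CPM in WT-labelled libraries of set A.

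**Figure D5:**
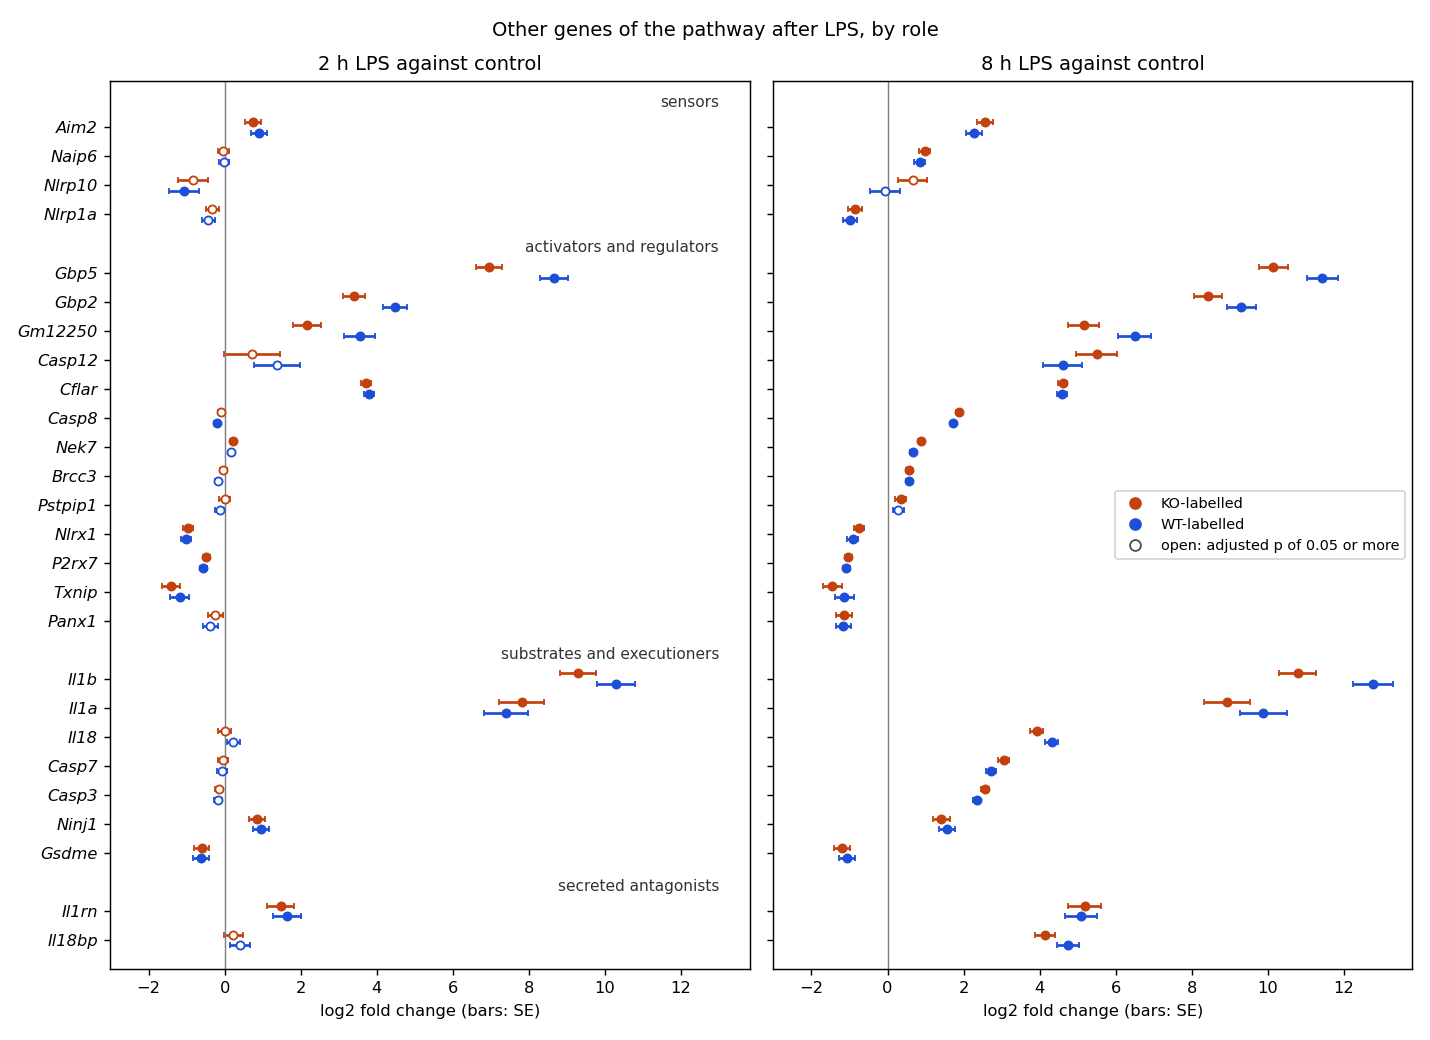
Log2 fold change after LPS with SE bars for the 26 tested pathway genes that are not among the 10, grouped by role, left at 2 h and right at 8 h, KO-labelled above WT-labelled; open points were not called. Il1b, Gbp5, Il1a and Gbp2 lie farthest right, and P2rx7, Txnip, Panx1 and Gsdme lie left of 0 at 8 h.

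For the members the genes with the most similar profile were found by Pearson's r of log2 CPM over the 36 libraries. The 9311 candidates were genes whose average log2 CPM reached 2. Members and genes with Gm-number, Rik or bare Ensembl names were left out. The libraries share treatment groups, sets and scaling. Nlrp3 was closest to Tnf, which encodes a cytokine (r = 0.993), then Irf1 and Peli1. Casp1 was closest to Cept1, Mpp1 and Acaa1a (r from 0.991 to 0.995), Casp4 to Sbds, Anxa7 and Calhm6 (r from 0.991 to 0.993), and Gsdmd to Trafd1, Grina and Herc6 (r from 0.991 to 0.993). Mefv was closest to Birc3, Mcoln2 and Rilpl2 (r from 0.985 to 0.986), and Nlrp1b to Cd300a, Phka2 and Epb41l1 (r from 0.974 to 0.976). Naip5 was closest to Inpp5k, Ptpro and Tmub2 (r from 0.964 to 0.971). The r values were lower for Nlrc4, with Dhx40, Hbp1 and Ms4a4a at 0.846 to 0.866, and for Pycard, with Dclre1a, Rhobtb2 and Orc3 at 0.803 to 0.852.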

How the data were processed

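RNA of the 36 libraries was counted per gene. The files the authors deposited hold raw, unnormalized read counts, made with HTSeq on mm10, per the submitters' processing notes. Aligner, annotation, HTSeq version and strand are not given in the sources used. Positions and symbols came from GENCODE M21 (54165 of 54232 identifiers), and promoter windows from RefSeq (GRCm38.p6). No row of unassigned reads was present.

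The genes were filtered with filterByExpr, scaled by TMM and fitted in edgeR 4.0.16 (R 4.3.3) with a robust quasi-likelihood model of 6 group means. Each contrast had an F test, with p-values adjusted by Benjamini-Hochberg over 12957 genes and called below 0.05. Standard errors (SE) come from the F statistic, and 95% intervals from the SE. The same code was tested on simulated data. The sets are as defined in the results, and the difference between them was tested with 12 means, an alternative chosen after seeing the data. Groups follow the labels; replicate numbers follow accession order and pair nothing. The labels do not say that libraries are separate cultures or animals, so a p-value reflects only how these libraries vary, which may be technical, and precision from depth covers counting error only. The lowest chi-square per gene between replicates was 2.15, so none were merged.

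The members, gene lists and tests were chosen with earlier results of these data known. Text names all 10 members, up to 3 called list genes per role and direction with the largest 8 h change in WT-labelled libraries, the 3 most similar genes per member (for Naip2 not reported here), and Nos1 as a check of the labels; single libraries and Il1b between the labels were named after their values were seen. Near-identical sequence means at least 95% identity over 100 bases or more. Alternatives were DESeq2 size factors, library totals, no count filter, 1 CPM in 6 libraries, DESeq2 1.42.0, limma-voom (limma 3.58.1), the compared groups alone, each set alone, the set as a term, leaving out the 6 libraries labelled BMDM or the 4 with muscle markers, and leaving out each library in turn.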

Additional observations from a re-analysis of the deposited data

Results flagged for a closer look

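A library standing apart from the other 5 of its group was looked for in 60 groups, 10 genes by 6 groups, with Dixon's ratio of gap to range at its 95% critical value. It was found in 3, and chance gives about 1 in 20 groups. Nlrp3 in KO-labelled control replicate 1 was low, at 35.1 CPM where the nearest library had 49.8 CPM. Naip2 in KO-labelled control replicate 2 was low, at 37.2 CPM where the nearest had 50.5 CPM. Mefv in WT-labelled 2 h replicate 1 was high, at 44.1 CPM where the nearest had 14.2 CPM. All 3 libraries belong to set A.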

How the results depend on the processing

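All 110 member results kept their side of the threshold with DESeq2 size factors, with DESeq2 and with at least 1 CPM in 6 libraries. Called results also kept their direction there. Directions were not compared for results called in neither fit. Leaving out 1 library changed 26 of 1560 values, 24 to not called and 2 to called. For KO-labelled 2 h against control, 5 members and 35.2% of all genes were called. There were 8 members with the set as a term (43.2% of all genes), 9 in set B (47.9%) and 3 without the libraries labelled BMDM (30.2%). With 1 library left out 3 to 6 members were called (3 without KO-labelled 2 h replicate 1). The share of all genes is not given for those fits, so these counts are a description only. Between the labels set B alone called 4 members in controls, 2 at 2 h and 6 at 8 h, and 1 and 2 in the 2 h and 8 h interactions, where all 36 libraries gave 0. Signs turned with library totals for Naip5 (KO-labelled 8 h -0.060, WT-labelled 8 h -0.0055), Nlrc4 (KO-labelled 8 h -0.30) and Pycard (KO-labelled -0.71 at 8 h and -0.011 for 8 h against 2 h, WT-labelled -0.34 for 8 h against 2 h), which follows from the lower median of all genes. In set A the sign turned for Nlrc4 (KO-labelled 8 h -0.18). In set B it turned for Naip2 at 2 h (KO-labelled -0.22, WT-labelled -0.18) and for Nlrp3 between the labels in controls (0.20). Between the labels at 2 h it turned in set B for Casp1 (0.17) and Gsdmd (0.25). The cause was not tested. All turns listed, with library totals too, are of results called in the main edgeR fit or in the alternative. Others, called in neither, turned as well, such as Pycard in set A (KO-labelled 8 h -0.16) and in set B (WT-labelled 8 h against 2 h -0.11). Over all genes, calls between the labels were 16 in controls, 3 at 2 h and 13 at 8 h. They were 1407, 1398 and 4075 in set B, 7, 9 and 7 in set A, and 86, 5 and 96 with DESeq2. In controls there were 3 with limma-voom, 3 with no count filter and 1 with the compared groups alone. At 8 h there were 29, 6 and 0 with these, 41 with library totals, 140 with the set as a term (9 at 2 h) and 20 without the libraries labelled BMDM. The 2 h and 8 h interactions called 0 and 0 by edgeR (153 and 540 at an unadjusted p below 0.05), 147 and 2162 in set B, and at 8 h 4 with DESeq2 and 1 with the set as a term. Library totals called 7266 genes in place of 4564 at 2 h in KO-labelled and 7608 in place of 4910 in WT-labelled libraries. No paired analysis was possible because the labels carry no replicate numbers. Depth limits Mefv in controls, with 3 to 20 counts per library in KO-labelled and 4 to 16 in WT-labelled ones.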

Other observations

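Among the members themselves, log2 CPM over the 36 libraries was most alike for Casp1 and Gsdmd (Pearson's r = 0.99), Mefv and Casp4 (0.95), and Naip2 and Gsdmd (0.94). Nlrp3 was nearer to Mefv (0.89) and Casp4 (0.84) than to Casp1 (0.55). Pycard followed no other member closely, with r of 0.0046 to Casp1 and -0.54 to Nlrp3, and Nlrp1b had a negative r to every member, down to -0.83 for Casp1. These values share libraries, treatment groups and scaling, and describe profiles only.

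Set B stood below set A, with no overlap of the 3 libraries of each, in all 6 groups for Nlrp1b and Casp4, in 5 for Nlrp3, Naip5 and Casp1, and in 4 for Gsdmd. Over all tested genes 2.58% stood so in 6 groups, 6.42% in 5 or more and 13.6% in 4 or more. For Pycard set B stood above set A in 4 groups, as it did in 4 or more for 14.7% of all genes. The sets were split on the same counts, so these shares are a description. The widest gap of the means for each of the first pair, set B over set A, was -1.55 for Nlrp1b in WT-labelled 8 h libraries, and -1.04 for Casp4 in WT-labelled 2 h libraries, on the log2 scale. The labels hold no factor that separates the sets.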
